A study of Rattus norvegicus with 12 samples.

Results

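The tubulin isotypes described here are 10 genes that encode the building blocks of microtubules: the beta-tubulins Tubb6, Tubb5, Tubb2a, Tubb2b, Tubb3 and Tubb4b, and the alpha-tubulins Tuba1a, Tuba1b, Tuba1c and Tuba4a. They were found by gene name on the array, where Tubb4b is written under its older name Tubb2c, and are read by 12 of the 30367 probes, since Tuba1b and Tuba1c have a pair of probes each. The genes were selected on their signal across the 3 groups in these same arrays, so the differences of each gene are given as values with no p-value. Counts of probes past a threshold are printed only beside the share of all tested probes, and support nothing. All 12 probes passed the filter on dim probes: a probe was tested if some group had it well above background on each of its 4 arrays, and 21071 were.

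The rats were females of the inbred F344 strain, 10 weeks old, and RNA came from the left kidney. In one group of 4 rats the kidney had undergone unilateral ischaemia-reperfusion injury (IRI), in which its blood flow is stopped and then restored, and was taken at day 7. A second group of 4 had the same injury and was killed at day 3, and 4 sham-operated rats were killed at day 7. The day 3 kidneys therefore differ from sham in time since the operation as well as in injury, while the day 7 kidneys do not. Each rat has 1 array, labelled with a single dye.

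Alpha- and beta-tubulin join as a dimer, and dimers polymerise into the microtubules that carry cargo, shape the cell, form the core of cilia and build the mitotic spindle. Mammals make several isotypes of each from separate genes. The isotypes are nearly alike over most of their length and differ most in an acidic tail at the end of the protein, which reaches out from the microtubule surface and is bound and modified by other proteins. Cells also sense free tubulin dimers and destroy tubulin mRNA when there are too many. In the kidney, epithelial cells of the tubule use microtubules to sort membrane proteins to the apical and basal sides and to build a primary cilium.

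A level below is the log2 processed signal of a probe minus the 75th percentile of its array, so 0 is the level of a probe at that percentile. A level of one probe cannot be set against that of another, because probes bind with different strength. The 75th percentile itself was 422 to 562 intensity units on day 7 arrays, 665 to 743 on day 3 arrays and 225 to 394 on sham arrays. All 13 kidney tubule markers passed the filter on dim probes. The arrays lay on 3 slides, each holding all 3 groups, and were scanned in 2 date batches.

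The probes of Tubb6 and Tuba4a each hold a run of codons for acidic residues, the kind of residue in the acidic tail. They are shown because these genes had the highest and the lowest log2 fold change of the 10 at day 3 against sham. Capitals mark the longest run of codons for the acidic residues glutamate and aspartate in an open frame, 7 codons in Tubb6 and 5 in Tuba4a. The Tuba4a probe has 1 open frame. The Tubb6 probe has 2, with 0 and 11 such codons, and the frame with more of them was used. Tubb6 lies at chr18:63928978-63929037 on the plus strand, and Tuba4a at chr9:74496576-74496635 on the minus strand, where its probe ends in the stop codon tag. These positions are on the rat build rn4, as in the array files. Whether each probe lies in an exon or a UTR was not looked up, since no rn4 annotation was used here.
Tubb6: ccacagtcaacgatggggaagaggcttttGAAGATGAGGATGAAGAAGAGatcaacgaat
Tuba4a: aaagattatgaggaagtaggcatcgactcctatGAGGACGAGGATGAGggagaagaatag

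A second pair of probes, named for 2 alpha-tubulins, is shown because their values were almost alike. Which transcripts these probes bind was not tested. The dimmer Tuba1b probe and the brighter Tuba1c probe have similar sequence where the end of one is laid over the start of the other. Whether this part is coding sequence was not looked up. Capitals mark the 38 bases over which they overlap, of which 33 match and 5 differ. The Tuba1c probe is placed at chr7:137817177-137817235, plus strand. The Tuba1b probe is placed at chr19:56546427-56546486, plus strand, although the other Tuba1b probe is placed on chromosome 7 at chr7:137706854-137706913, minus strand.
Tuba1b, dimmer probe: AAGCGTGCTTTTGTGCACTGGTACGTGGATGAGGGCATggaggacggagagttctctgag
Tuba1c, brighter probe: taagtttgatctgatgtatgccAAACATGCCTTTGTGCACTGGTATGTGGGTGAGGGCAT

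Most isotypes were higher 3 days after injury than in sham kidneys and lower again at day 7, while Tuba4a and Tubb4b stayed within the spread of the groups. At day 3 against sham, 10 of the 12 probes were past an adjusted p of 0.05 in limma, all higher, where 56.5% of all tested probes passed and 24.5% were higher by that rule. For 8 of the 12 every day 3 array lay above every sham array, which held for 22.4% of all tested probes, while groups without overlap in either direction made up 50.9%. The median over the 10 genes, each by its brighter probe, was 1.96 on the log2 scale, beside -0.11 for all tested probes. Since the genes were chosen with these contrasts known, nothing is read from these counts. In whole-kidney RNA a change in the share of cells that express a gene and a change in RNA per cell cannot be told apart.

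**Figure D1:**
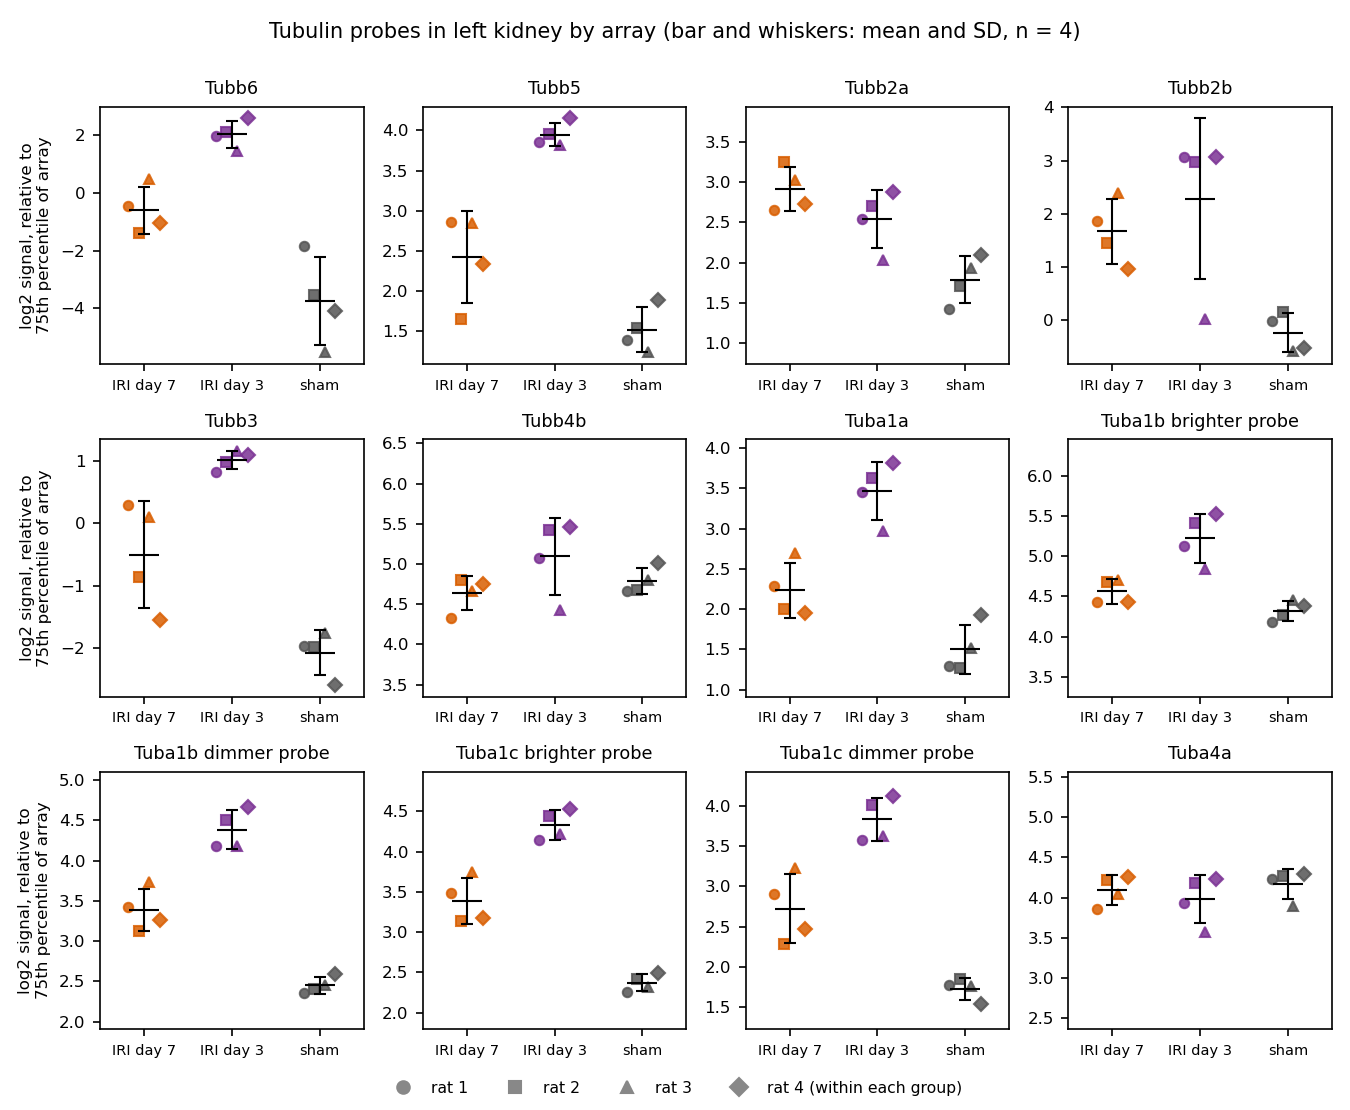
Level of each of the 12 tubulin probes on the 12 arrays, as log2 signal above or below the array's 75th percentile, with a vertical axis of its own for each probe. Points are rats, bars are group means and whiskers SD (n = 4); the 4 day 3 arrays of Tubb6 lie between 1.43 and 2.57, above all day 7 and sham arrays, while the 3 groups of Tuba4a overlap.

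Among the beta-tubulins, Tubb6, an isotype whose excess is known to disrupt microtubules in cultured cells, had the largest difference of the 10 genes at day 3 against sham. Its level was -0.45, -1.38, 0.46 and -1.04 on the day 7 arrays, 1.97, 2.11, 1.43 and 2.57 on the day 3 arrays, and -1.83, -3.54, -5.52 and -4.11 on the sham arrays. The 3 groups did not overlap with one another. The probe was well above background on 3 of the 4 sham arrays, and the array below it was the one at -5.52.

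The mean level of Tubb6 was -0.60 ± 0.81 at day 7, 2.02 ± 0.47 at day 3 and -3.75 ± 1.53 in sham (SD, n = 4 each). This gave a log2 fold change of 5.77 ± 0.64 (SE) at day 3 against sham, or 54.7-fold, and of 3.15 ± 0.64 at day 7 against sham, or 8.87-fold. Day 7 against day 3 was -2.62 ± 0.64. The sham arrays decided much of the size: day 3 against sham was 6.41 without sham rat 1 and 5.18 without sham rat 3, and day 7 against sham was 3.79 and 2.56. With the normexp background correction, which compresses dim signals, the difference from sham was 3.07 at day 3 and 0.85 at day 7.

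Tubb3, best known as the isotype of nerve cells, followed the same order. Its level was 0.28, -0.86, 0.10 and -1.55 at day 7, 0.82, 0.98, 1.15 and 1.09 at day 3, and -1.97, -1.99, -1.76 and -2.59 in sham. The groups did not overlap, and the day 3 arrays lay close together while the day 7 arrays were spread out. The log2 fold change was 3.09 ± 0.35 (SE) at day 3 against sham, 1.57 ± 0.35 at day 7 against sham and -1.52 ± 0.35 at day 7 against day 3. With normexp the difference from sham was 1.65 at day 3 and 0.47 at day 7. Of 14 nerve and glia markers, 5 passed the filter on dim probes; at day 3, 1 of these was higher than sham and 3 were lower (limma, Benjamini-Hochberg adjusted p under 0.05). The one that was higher was Uchl1, a ubiquitin hydrolase abundant in neurons, by 3.10 ± 0.33 (SE) at day 3 (adjusted p = 2.3e-05) and 1.30 ± 0.33 at day 7 (adjusted p = 0.0186). Among those lower at day 3 were Elavl3, a neuronal RNA-binding protein, and Sox10, a transcription factor of glia, at -1.02 ± 0.15 and -1.17 ± 0.28 (adjusted p = 0.000148 and 0.00381). The neuronal genes Elavl4, Nefm and Syt1 were not well above background on any array. The part of nerve cells in the Tubb3 level was not tested.

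Tubb5, the beta-tubulin found in most dividing cells, was high at day 3 on every array. Its level was 2.86, 1.65, 2.85 and 2.34 at day 7, 3.86, 3.95, 3.82 and 4.15 at day 3, and 1.39, 1.54, 1.24 and 1.89 in sham. Day 3 stood clear of both other groups, and the lowest day 7 array lay within the range of the sham arrays. The log2 fold change was 2.43 ± 0.25 (SE) at day 3 against sham, or 5.39-fold, 0.91 ± 0.25 at day 7 against sham and -1.52 ± 0.25 at day 7 against day 3. On slide 1, which holds that lowest day 7 array, day 7 was level with sham (0.01), while the other 2 slides gave 1.31 and 1.36.

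Tubb2a and Tubb2b are neighbouring class II beta-tubulin genes that encode nearly identical proteins. Their probes lie at chr17:37142966-37143025 and chr17:37090908-37090967, both on the plus strand. Slid along each other without gaps, they had no overlap of 20 or more bases that matched at 75% or more over its whole length. Matching stretches inside a longer overlap were not searched for. The mean of Tubb2a was highest at day 7 and that of Tubb2b at day 3. For both genes the day 7 and day 3 arrays overlapped, so a difference in timing is not shown.

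Tubb2a was the only one of the 10 genes whose mean was highest at day 7. Its level was 2.65, 3.25, 3.03 and 2.73 at day 7, 2.54, 2.70, 2.04 and 2.88 at day 3, and 1.42, 1.71, 1.93 and 2.09 in sham. The day 7 arrays were all above the sham arrays, the day 3 and sham ranges touched at 1 day 3 array, and the day 7 and day 3 ranges overlapped. The log2 fold change was 1.13 ± 0.22 (SE) at day 7 against sham, 0.75 ± 0.22 at day 3 against sham and 0.37 ± 0.22 at day 7 against day 3. The last of these was 1.22, 0.32 and -0.02 on the 3 slides, so its sign was not the same on all of them.

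Tubb2b was high on 3 of the 4 day 3 arrays. Its level was 1.87, 1.46, 2.40 and 0.96 at day 7, 3.08, 2.97, 0.02 and 3.08 at day 3, and -0.02, 0.16, -0.57 and -0.53 in sham. The kidney of day 3 rat 3 lay within the sham range, and all 4 day 7 kidneys lay above it. The log2 fold change was 2.53 ± 0.60 (SE) at day 3 against sham and 3.28 without that rat. At day 7 against sham it was 1.91 ± 0.60, and at day 7 against day 3 it was -0.61 ± 0.60, or -1.37 without that rat. On slides 1, 2 and 3 day 7 against day 3 was 1.44, -0.68 and -1.55, the first being the slide of that rat. The same rat had the lowest day 3 level of Tubb6, Tubb5, Tubb2a, Tubb4b, Tuba1a, Tuba4a and the brighter Tuba1b probe. It did not have the lowest day 3 level of Tubb3, at 1.15 the highest of its group, nor of either Tuba1c probe.

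Tubb4b, a widely expressed beta-tubulin that also builds the axoneme of cilia, had overlapping groups in every comparison. Its mean level was 4.64 ± 0.21 at day 7, 5.09 ± 0.48 at day 3 and 4.79 ± 0.16 in sham (SD, n = 4 each). The log2 fold change was 0.30 ± 0.22 (SE) at day 3 against sham, -0.15 ± 0.22 at day 7 against sham and -0.46 ± 0.22 at day 7 against day 3. The lowest day 3 array, at 4.43, was again rat 3, and the other day 3 arrays were at 5.08, 5.42 and 5.45. Without that rat, day 3 against sham was 0.53 and day 7 against day 3 was -0.68. With normexp and with scaling to total signal, day 3 against sham was 0.80 and 0.58, and day 7 against sham was positive, at 0.27 and 0.08.

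The alpha-tubulins Tuba1a, Tuba1b and Tuba1c lie in a cluster on chromosome 7 and had their highest mean at day 3 on every probe. Tuba1a, abundant in the developing brain, was read by 10 spots on each array, and the median SD of these spots within an array was 0.05, smaller than the SD between rats. Its level was 2.29, 2.0, 2.70 and 1.95 at day 7, 3.45, 3.63, 2.97 and 3.81 at day 3, and 1.29, 1.27, 1.52 and 1.93 in sham. The groups did not overlap, although the lowest day 7 array exceeded the highest sham array by 0.03 only. The log2 fold change was 1.96 ± 0.23 (SE) at day 3 against sham, or 3.90-fold, 0.73 ± 0.23 at day 7 against sham and -1.23 ± 0.23 at day 7 against day 3.

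The pair of Tuba1b probes gave different sizes. Tuba1b is an alpha-tubulin made by most cell types. On the brighter probe the level was 4.42 to 4.71 at day 7, 4.84 to 5.52 at day 3 and 4.18 to 4.45 in sham, and day 3 did not overlap with either other group. Its log2 fold change was 0.91 ± 0.17 (SE) at day 3 against sham, 0.24 ± 0.17 at day 7 against sham and -0.66 ± 0.17 at day 7 against day 3. On the dimmer probe the same comparisons gave 1.93 ± 0.17, 0.93 ± 0.17 and -1.0 ± 0.17, and no groups overlapped. The dimmer probe is the one placed on chromosome 19, whose sequence is set beside the Tuba1c probe above.

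Tuba1c, an alpha-tubulin close in sequence to Tuba1b, gave nearly the same differences on both of its probes. The brighter probe had a level of 3.14 to 3.75 at day 7, 4.14 to 4.54 at day 3 and 2.25 to 2.5 in sham. Its log2 fold change was 1.96 ± 0.17 (SE) at day 3 against sham, 1.02 ± 0.17 at day 7 against sham and -0.95 ± 0.17 at day 7 against day 3. The dimmer probe, at chr7:137816836-137816895, gave 2.10 ± 0.21, 0.99 ± 0.21 and -1.11 ± 0.21. Groups did not overlap on either probe. The values of the brighter Tuba1c probe and the dimmer Tuba1b probe thus differed by at most 0.08 in the 3 comparisons. Whether the dimmer Tuba1b probe binds RNA of Tuba1c was not tested.

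Tuba4a stood apart from the other alpha-tubulins. It is an isotype found in muscle, brain and platelets and encodes no final tyrosine, the residue that other alpha-tubulins lose and regain. Its level was 3.86, 4.22, 4.05 and 4.25 at day 7, 3.94, 4.18, 3.57 and 4.23 at day 3, and 4.23, 4.27, 3.90 and 4.29 in sham. All groups overlapped, and the log2 fold change was -0.19 ± 0.18 (SE) at day 3 against sham, -0.08 ± 0.18 at day 7 against sham and 0.11 ± 0.18 at day 7 against day 3. The signs were not stable. With normexp the first 2 were 0.29 and 0.31, and with scaling to total signal, which raised the median of all probes at day 3 to 0.17, they were 0.08 and 0.16. Day 7 against day 3 was -0.02 without day 3 rat 3.

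**Figure D2:**
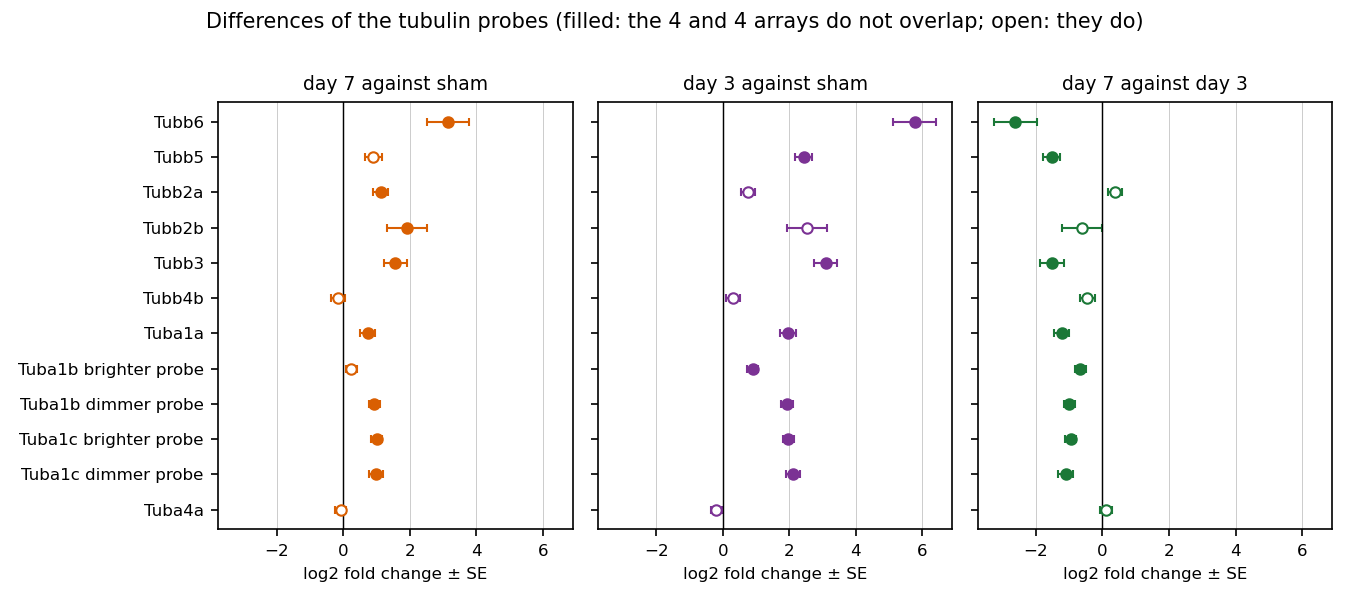
Log2 fold change of each tubulin probe, with its SE, at day 7 against sham, day 3 against sham and day 7 against day 3. Filled points mark probes whose 4 and 4 arrays did not overlap; 8 of 12 were filled in each comparison, and Tuba4a and Tubb4b were open in all 3.

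In the day 7 kidneys, 9 of the 12 probes were past the limma threshold against sham, all higher, where 18.3% of all tested probes passed and 8.05% were higher. Every day 7 array lay above every sham array for 8 probes, against 9% of all tested probes, and 21.3% had no overlap in either direction. The median over the 10 genes was 0.96, beside -0.06 for all tested probes. With normexp 0 of the 12 passed, and with normexp fitted without the spots at or below their local background 9 did. With the slide or the scan date as a block 7 passed, where 3660 and 3511 of all probes did. With the replicate block or without the filter on dim probes 6 passed, where 2726 and 2761 of all probes did. Tuba1a fell short of the threshold in 15 of 25 alternatives, Tubb2b in 14 and Tubb5 in 9.

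Between the injured groups, 8 of the 12 probes were past the threshold at day 7 against day 3, all lower, where 30.8% of all tested probes passed and 13.6% were lower. Every day 7 array lay below every day 3 array for 8, against 17.8% of all tested probes, and 35.6% had no overlap in either direction. The median was -0.81, beside 0.03 for all tested probes. As a share of the log2 difference from sham at day 3, the difference at day 7 was 149.6% for Tubb2a, 75.7% for Tubb2b, 54.5% for Tubb6, 50.9% for Tubb3, 51.7% and 47.3% for the Tuba1c probes, 48.3% and 26.8% for the dimmer and the brighter Tuba1b probe, and 37.3% for Tuba1a and for Tubb5. With normexp it was 27.7% for Tubb6 and 28.3% for Tubb3. The 2 comparisons with sham share the 4 sham arrays, so these shares are descriptions. Within the slides the sign was the same on all 3 for 10 of the 12 probes at day 3 against sham, 10 at day 7 against sham and 8 at day 7 against day 3, where 71.8%, 52.9% and 61.8% of all tested probes kept theirs. The 10 at day 7 include Tubb4b, which was lower on all 3 slides.

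Markers of dividing cells, fibroblasts and macrophages were higher at day 3, and those of several resident cell types were lower. The summed level of 9 tested proliferation markers, as log2 of their sum, was 1.78 to 2.83 at day 7, 4.18 to 4.91 at day 3 and 0.94 to 1.57 in sham. All 9 were higher than sham at day 3 and 5 at day 7. For the 6 tested of 7 fibroblast and myofibroblast genes the summed level was 5.72 to 6.15 at day 7, 6.18 to 6.85 at day 3 and 3.85 to 4.69 in sham. All 6 were higher than sham at day 3. For the 7 tested of 9 macrophage genes it was 3.86 to 4.31 at day 7, 4.29 to 4.68 at day 3 and 2.67 to 3.40 in sham. Of these 7, 5 were higher than sham at day 3. The 13 kidney tubule genes went the other way at day 3, at 7.23 to 7.89 on day 7 arrays, 5.33 to 6.35 on day 3 arrays and 7.97 to 8.10 on sham arrays, with all 13 lower than sham at day 3. Podocyte genes had 3 of 5 lower than sham at day 3, with a summed level of 2.54 to 3.62 at day 7, 2.07 to 2.42 at day 3 and 3.87 to 4.23 in sham. Endothelial genes had 5 of 7 lower, at 2.73 to 3.74 at day 7, 2.61 to 3.05 at day 3 and 3.96 to 4.32 in sham. Of the lymphocyte genes 1 of 5 tested was higher at day 3, of the platelet genes 1 of 2 was lower, and of the muscle and adrenal genes 1 of 3 was higher and 1 lower. The part of these cell types in the tubulin levels was not tested.

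The promoters of the 10 genes, all found in RefSeq on the build GRCr8, were searched over the 250 bases before the start for short motifs, on both strands. CCAAT stood in 8 of the 10, the exceptions being Tubb2a and Tuba4a, and in 34% of 33469 RefSeq promoters. GGGCGG, the GC box, stood in 9 of the 10, the exception being Tubb2b, and in 30.5% of all. TATAAA stood in Tubb2a and Tubb4b, and in 12.9% of all. TTTGAA and TTTAAA, core letters of an element found in genes of the cell cycle, stood in 2 and 0 of the 10, against 16.2% and 12.3% of all. A match is only a run of letters and was not tied to binding in these kidneys.

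The last 120 bases before the start are shown for 5 genes that differ in motifs and in values. Tubb6 and Tubb3, with the largest differences at day 3 against sham, carry CCAAT in reverse at 85 and 81 bases before the start. Tubb4b, whose groups overlapped in every comparison, carries it at 104 and 64 bases and at 2 places further out. Tuba4a, whose groups also overlapped, has none, and neither has Tubb2a, which was higher than sham at day 7. Capitals mark CCAAT or its reverse complement, the GC box on either strand and TATAAA. Tubb6 is at chr18:63213167-63213286, plus strand, Tubb3 at chr19:68365567-68365686, plus strand, Tubb4b at chr3:28438456-28438575, minus strand, Tuba4a at chr9:84162585-84162704, minus strand, and Tubb2a at chr17:31002066-31002185, plus strand, all on GRCr8.
Tubb6: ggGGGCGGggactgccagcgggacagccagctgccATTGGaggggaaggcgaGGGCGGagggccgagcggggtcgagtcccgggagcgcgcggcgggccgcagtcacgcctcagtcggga
Tubb3: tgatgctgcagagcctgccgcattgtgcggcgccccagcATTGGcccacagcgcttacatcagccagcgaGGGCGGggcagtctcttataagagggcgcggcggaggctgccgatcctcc
Tubb4b: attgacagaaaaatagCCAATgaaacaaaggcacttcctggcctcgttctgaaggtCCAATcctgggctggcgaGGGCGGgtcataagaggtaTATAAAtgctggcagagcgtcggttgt
Tuba4a: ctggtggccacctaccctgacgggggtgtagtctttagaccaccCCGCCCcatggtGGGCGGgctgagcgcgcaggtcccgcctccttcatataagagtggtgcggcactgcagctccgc
Tubb2a: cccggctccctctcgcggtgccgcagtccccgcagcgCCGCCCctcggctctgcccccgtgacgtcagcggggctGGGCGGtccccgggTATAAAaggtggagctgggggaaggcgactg

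Other microtubule genes, grouped in 8 lists, were tested with limma, with Benjamini-Hochberg adjustment over all 21071 probes and each gene by its brightest probe. At day 3 against sham 62 of 146 tested genes were higher and 26 lower, where 24.5% and 32% of all tested probes were. In the day 7 kidneys 21 were higher than sham and 9 lower, where 8.05% and 10.3% were. The day 7 kidneys had 13 higher and 44 lower than the day 3 kidneys, where 17.1% and 13.6% were.

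**Figure D3:**
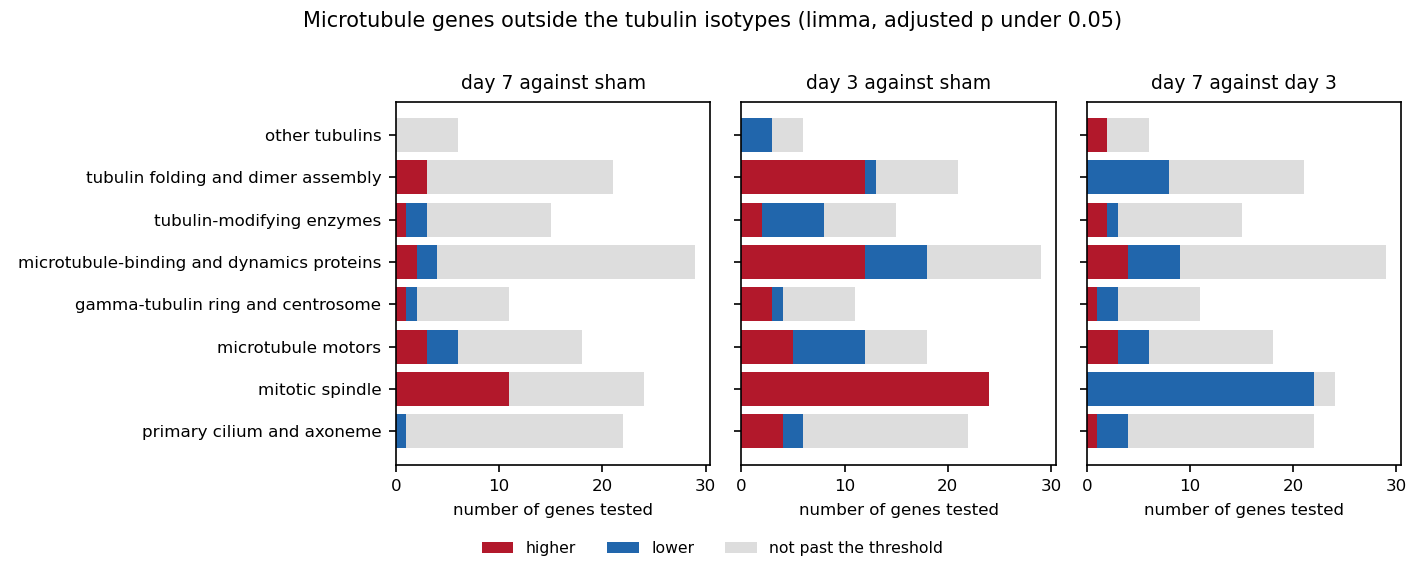
Number of genes tested in each of 8 lists of microtubule genes, split into those higher, lower and not past the threshold (limma, adjusted p under 0.05) in each of the 3 comparisons. All 24 genes of the mitotic spindle were higher at day 3 against sham, while none of the 6 other tubulins was. Some spindle genes passed the filter on dim probes only through the day 3 arrays.

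Among the other tubulins, none was higher than sham at day 3, and 3 of the 6 tested were lower. Tuba8, an alpha-tubulin of testis and muscle, averaged -2.02 ± 0.44 at day 7, -6.02 ± 1.36 at day 3 and -2.19 ± 0.85 in sham (SD, n = 4 each), and was well above background on 1 of the 4 day 3 arrays. The fitted log2 fold change was -3.83 ± 0.60 (SE) at day 3 against sham (adjusted p = 0.000256), a size that rests on 3 day 3 arrays near background. Tubb4a, an isotype of the brain, fell by 1.30 ± 0.27 on the log2 scale at day 3 (adjusted p = 0.00149), and Tubg2, a gamma-tubulin, by 0.50 ± 0.20 (adjusted p = 0.0487).

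Tubg1, the main gamma-tubulin, and the centriolar tubulins Tubd1 and Tube1 did not pass, with 0.43 ± 0.22, -0.47 ± 0.26 and 0.36 ± 0.28 at day 3 against sham. None of the 6 was past the threshold at day 7 against sham, and 0 had an unadjusted p under 0.05 there. Tuba3a and Tubal3 were not well above background on any array, Tuba3b was so on 1 array, and no probe was found under the name Tubb1.

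Of 21 tested genes for tubulin folding and dimer assembly, 12 were higher at day 3 and 1 was lower. The chaperonin CCT folds newly made tubulin and actin. Its subunits Cct4 and Cct5 had log2 fold changes of 1.66 ± 0.23 and 1.59 ± 0.19 (SE; adjusted p = 0.000107 and 4.62e-05), and Cct2 of 1.40 ± 0.25 (adjusted p = 0.000629). Pfdn1, a subunit of prefoldin, which hands unfolded tubulin to CCT, had 1.05 ± 0.17 (adjusted p = 0.0004). In the day 7 kidneys 3 were higher than sham and none was lower; Cct5 had 0.64 ± 0.19 (adjusted p = 0.0359) and Cct7 0.56 ± 0.17 (adjusted p = 0.0416). Between day 7 and day 3, 8 were lower at day 7.

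Of 15 tubulin-modifying enzymes, 2 were higher and 6 lower at day 3 against sham. Ttll3, which adds glycine to tubulin in axonemes, fell by 2.05 ± 0.21 on the log2 scale (adjusted p = 2.16e-05). Agbl5, a carboxypeptidase that removes glutamate branches from the tail, fell by 1.21 ± 0.17 (adjusted p = 0.000106). Vash2, an enzyme that removes the final tyrosine of alpha-tubulin, fell by 1.5 ± 0.48 (adjusted p = 0.0186), whereas Svbp, its binding partner, was higher by 1.36 ± 0.24 (adjusted p = 0.00055). Vash1, the other gene of this list that was higher at day 3, was so by 0.61 ± 0.24 (adjusted p = 0.0459). Svbp was also higher at day 7 against sham, by 1.01 ± 0.24 (adjusted p = 0.0141), and Ttll3 lower, at -0.82 ± 0.21 (adjusted p = 0.0218). A second Svbp probe gave 0.48 ± 0.16 at day 3 (adjusted p = 0.0256) and 0.23 ± 0.16 at day 7 (adjusted p = 0.356).

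Of 29 proteins that bind microtubules or set their dynamics, 12 were higher and 6 lower at day 3. Map1b, a microtubule-associated protein of growing nerve processes, averaged -1.90 ± 0.37 at day 7, -0.28 ± 0.59 at day 3 and -4.13 ± 0.36 in sham (SD, n = 4 each), and was well above background on 1 of the 4 sham arrays. The fitted log2 fold change was 3.85 ± 0.30 at day 3 (SE; adjusted p = 4.81e-06) and 2.24 ± 0.30 at day 7 (adjusted p = 0.000876), sizes that rest on 3 sham arrays near background. Stmn1, or stathmin, which binds tubulin dimers and promotes disassembly, was higher by 3.12 ± 0.24 at day 3 (adjusted p = 4.75e-06) and 1.80 ± 0.24 at day 7 (adjusted p = 0.000834).

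In the same list, Mapt, the gene of tau, and Map7, a microtubule-stabilising protein of epithelial cells, were lower at day 3, with -1.71 ± 0.34 (SE; adjusted p = 0.00132) and -1.66 ± 0.19 (adjusted p = 4.27e-05). Map7 was also lower than sham at day 7, by a log2 fold change of -0.80 ± 0.19 (adjusted p = 0.0158). For Mapt the day 7 value was -0.47 ± 0.34 (adjusted p = 0.363).

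Of 18 motor genes, 5 were higher and 7 lower at day 3. Among the 7 is Dync1i2, at -0.74 ± 0.18 (SE) by its brightest probe. Its 2 other tested probes passed the threshold in the other direction, at 0.73 and 1.20. The dynein light chains Dynlt1 and Dynll1 were higher by 2.52 ± 0.22 and 2.21 ± 0.17 (SE; adjusted p = 8.54e-06 and 5.59e-06), and still at day 7 by 1.48 ± 0.22 and 1.18 ± 0.17 (adjusted p = 0.00156 and 0.00154). Klc4, a kinesin light chain, and Kif16b, a kinesin of endosomes, were lower at day 3, at -1.56 ± 0.18 and -1.16 ± 0.24 (adjusted p = 3.68e-05 and 0.00156). A second Kif16b probe gave -0.16 ± 0.28 at day 3 (adjusted p = 0.637), so the probes of this gene disagree.

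Of 11 genes of the gamma-tubulin ring, which nucleates microtubules, and the centrosome, 3 were higher and 1 lower at day 3. Plk4, the kinase of centriole duplication, was higher by 2.15 ± 0.28 (SE, adjusted p = 8.23e-05), Tubgcp2 by 1.18 ± 0.30 (adjusted p = 0.00545) and Tubgcp3 by 0.49 ± 0.18 (adjusted p = 0.0359). The Plk4 probe passed the filter on dim probes only through the day 3 arrays, so the filter itself favoured a higher value there. It was well above background on 1 of the 4 sham arrays, and its size rests largely on sham values near background. The brighter Tubgcp6 probe was lower, at -1.43 ± 0.21 (adjusted p = 0.000167), while the other gave 0.25 ± 0.66 (adjusted p = 0.765). At day 7 against sham Tubgcp3 was higher by 0.64 ± 0.18 (adjusted p = 0.0301) and the brighter Tubgcp6 probe lower, at -0.69 ± 0.21 (adjusted p = 0.0395), while the other gave 1.07 ± 0.66 (adjusted p = 0.282).

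All 24 tested genes of the mitotic spindle were higher at day 3 against sham, with a median log2 fold change of 3.5, and 11 were still higher at day 7, with a median of 1.21. Some, among them Kif15, Kif18a, Ttk and Bub1b, passed the filter on dim probes only through the day 3 arrays. These genes were not well above background on any sham array, so the filter itself favoured higher values at day 3. The medians rest in part on sham values near background. Plk1, a kinase of mitotic entry, was 24.2-fold higher at day 3 (4.60 ± 0.48, SE; adjusted p = 2.17e-05). Bub1 and Spc25, which act at kinetochores, and Aurka, the kinase of spindle poles, were not well above background on any sham array. They were at least 9.60-fold, 7.25-fold and 6.71-fold higher at day 3. These bounds set the day 3 mean against the dimmest signal well above background on each sham array, and carry no test. Bub1 and Aurka also passed the filter on dim probes only through the day 3 arrays. Of the 24, 22 were lower at day 7 than at day 3.

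The 22 genes of the primary cilium and axoneme had a median near that of all probes, 0.06 at day 3 against sham beside -0.11. Pkd2, the channel polycystin-2, was higher by 1.59 ± 0.37 (SE, adjusted p = 0.00343), Bbs7, of the cilium-directed BBSome, by 1.38 ± 0.24 (adjusted p = 0.00052) and Ift74, of the intraflagellar transport train, by 0.90 ± 0.18 (adjusted p = 0.00114). Pkd2 and Bbs7 passed the filter on dim probes only through the day 3 arrays, so the filter itself favoured higher values there. Pkd2 was well above background on 3 of the 4 sham arrays and Bbs7 on 1, so the size for Bbs7 rests largely on sham values near background. Bbs2, another BBSome subunit, was lower at day 3, at -1.36 ± 0.27 (adjusted p = 0.00136), and at day 7, at -0.94 ± 0.27 (adjusted p = 0.0349). Of the 22, 4 were higher and 2 lower at day 3, and 0 higher and 1 lower at day 7.

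Genes with the pattern most like that of the isotypes were sought among 11438 named probes above background on all 12 arrays, by Pearson's r over the 12 arrays. Arrays of a group share their injury, so a high r mostly repeats the order of the groups, and no test is given. Nearest to the median profile of the 10 genes were B4galt5, a galactosyltransferase (r = 0.990), Coro1b, an actin-binding coronin (0.988), Prkci, an atypical protein kinase C of cell polarity (0.985), Capza1, an actin-capping subunit (0.985), and S100a10, a calcium-binding family protein (0.984). For single isotypes the nearest was Tnfrsf12a, the receptor of TWEAK, for Tubb3 (0.983), Tmsb4x, an actin-binding thymosin, for Tuba1c (0.993), and Gng10, a G protein subunit, for Tubb6 (0.984). Tubb2b was nearest to the class I histocompatibility gene RT1-S2 (0.982), and this r was 0.967 over deviations from the group means. The latter r rests largely on day 3 rat 3, whose Tubb2b level was 0.02 beside 2.97 to 3.08 on the other day 3 arrays. For Tuba4a the nearest was Ift20, of intraflagellar transport, at 0.889.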

How the data were processed

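Each of 12 single-colour Agilent arrays holds 42877 spots. Per the file headers, spots were read with Feature Extraction 9.5.1.1, and the deposited intensity used here is the processed signal, which the authors' software had already corrected for background. Probe positions are on rn4, per the file headers. Log2 of the processed signal minus the 75th percentile of the array was computed, spots of a probe were averaged, control spots and outlier spots were left out, and no probe was dropped or imputed for a member. The deposited series table, whose log2 values the authors centred per probe, matched remade values with a correlation of 0.998 or more and served as an alternative; its centring was found from the values, as no label states it.

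Groups were compared in limma 3.58.1 (R 4.3.3) with 3 group means over all 12 arrays and Benjamini-Hochberg adjustment over 21071 probes, threshold 0.05; the code was tested on simulated data. The number of arrays limits precision, and p-values measure the spread between rats, 1 array each. Alternatives were normexp, 3 scalings, the authors' table, other filters, blocks and leaving out each array. The members and lists were chosen with earlier results of these data known. Named were all members, all other tubulins and the most alike genes. From each list, up to 4 genes with the largest passing change at day 3 and up to 2 at day 7 were named. Vash1 at day 3, Map7 and Mapt at day 7 and the day 7 change against day 3 of named genes were added to these. Of the 30367 probes, 17990 took their gene name through an accession, 2367 through a symbol, 615 through a synonym, and 9395 kept the file's name. Replicate numbers shared by the groups did not pair the arrays: correlations of deviations within same-numbered pairs ran from -0.34 to 0.19. Promoters came from RefSeq (GRCr8).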

Additional observations from a re-analysis of the deposited data

Results flagged for a closer look

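In a group of 4 arrays a single array can lie far from the other 3, and chance gives such a gap in about 1 of 20 groups; 54 groups were looked at. The kidney of day 3 rat 3 had a Tubb2b level of 0.02, while the other day 3 kidneys lay between 2.97 and 3.08. The kidney of sham rat 3 had a Tuba4a level of 3.90, while the other sham kidneys lay between 4.23 and 4.29. The kidney of day 3 rat 4 had a Tuba8 level of -4.00, the highest of its group and well above background there, while the other day 3 kidneys lay between -6.85 and -6.41.

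For 2 tubulins outside the 10 genes the day 7 and day 3 kidneys differed from each other while both were set against sham. Tuba8 was higher at day 7 than at day 3 by 4.00 ± 0.60 on the log2 scale (SE, limma, adjusted p = 0.0013), a size that rests on 3 day 3 arrays not well above background, and Tubb4a by 0.93 ± 0.27 (adjusted p = 0.0223).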

How the results depend on the processing

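Over all tested probes 11903 passed at day 3 against sham, 3866 at day 7 against sham and 6480 at day 7 against day 3; with normexp 3428, 92 and 176 did. Of the microtubule genes 88, 30 and 57 passed, and with normexp 28, 0 (10 at an unadjusted limma p under 0.05) and 5. Of the tubulin probes 10, 9 and 8 passed, a count added after the data were seen; with normexp 0 passed at day 7 against sham and 0 at day 7 against day 3 (7 and 8 unadjusted). Fitting normexp without spots at or below their local background, up to 25 on an array, gave 13379, 3906 and 8773 probes, 88, 21 and 63 microtubule genes and 10, 9 and 9 tubulin probes. Scaling to total signal moved the members' median at day 3 to 2.24, against 1.96, and the median of all probes to 0.17, against -0.11. Without the filter on dim probes 19 microtubule genes passed at day 7. With the replicate block 11404, 2726 and 5188 probes passed, and 2 of 12 arrays matched their own number best. Leaving out single arrays gave 10404 to 11971, 2293 to 3833 and 3832 to 7400 probes, 78 to 90, 16 to 28 and 42 to 63 microtubule genes, and 10 to 11, 6 to 9 and 8 to 10 tubulin probes. The members' medians ran from 1.87 to 2.06, 0.83 to 1.06 and -1.18 to -0.72, the last without day 3 rat 3 at -1.18. The counts fell by over 1.5 times without day 7 rat 1 (2422 probes) or rat 3 (2293) at day 7 against sham, and without day 3 rat 2 (4034), day 3 rat 4 (3832) or day 7 rat 4 (4219) at day 7 against day 3. Microtubule genes at day 7 fell to 19, 18 and 16 without sham rat 2, day 7 rat 1 and day 7 rat 3. No called difference of a tubulin probe changed sign. Causes were not tested.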

Other observations

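A few probes carry tubulin-like descriptions under names outside the list of 10 genes. XM_232565, described as similar to an alpha-tubulin and placed on chromosome 17, averaged 0.71 ± 0.43 at day 7, 1.79 ± 0.27 at day 3 and -0.41 ± 0.08 in sham (SD, n = 4 each). It was higher than sham by 2.20 ± 0.21 at day 3 and 1.12 ± 0.21 at day 7 (SE, limma, adjusted p = 1.32e-05 and 0.00501). XM_222593, also described as alpha-tubulin-like and placed on chromosome 13, was higher at day 3 by 1.42 ± 0.20 (adjusted p = 0.000145) and at day 7 by 0.14 ± 0.20 (adjusted p = 0.683).

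LOC691781 is placed on chromosome 19 at chr19:56546573-56546632 on rn4, 87 bases from the dimmer Tuba1b probe. It was higher than sham by 0.72 ± 0.13 at day 3 and 0.22 ± 0.13 at day 7 (SE, limma, adjusted p = 0.000769 and 0.282), beside 0.91 and 0.24 for the brighter Tuba1b probe and 1.93 and 0.93 for the dimmer one. RGD1565579, on chromosome X, had 0.38 ± 0.30 at day 3 (adjusted p = 0.299), and LOC679312 was not well above background on any array. Which transcripts these probes bind was not tested.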
